A study of Mus musculus with 18 samples.

Results

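The genes described here are 9 components of interferon and cytokine signalling in B16F10 mouse melanoma. They are the type I interferon receptor chains Ifnar1 and Ifnar2, the transcription factors Stat2, Stat3, Irf1, Irf7 and Irf9, and the feedback inhibitors Socs1 and Socs3. They were taken by symbol from a table of 23453 genes, and all 9 were in it. RNA was sequenced from B16F10 cells, a melanoma line from C57BL/6J mice, infected with a lentivirus whose shRNA targeted Hgs (shHrs) or was scrambled (shCTL). Hgs encodes Hrs, an endosomal protein that sorts ubiquitinated membrane proteins, receptors among them, towards degradation. All cells had passed 5 days of selection with puromycin at 2 µg/ml or blasticidin at 5 µg/ml, and the labels do not say which drug each group had or how many shRNA sequences or clones were used. Cultures formed 2 batches with 2 shCTL and 2 shHrs libraries each, and 5 shCTL and 5 shHrs tumours were taken from immunocompetent wild-type female C57BL/6 mice of 6 to 8 weeks, whose own cells in the tumour carry no shRNA. Repeats are described as biological, with nothing on whether the cultures were grown separately, and each p-value therefore measures only the spread between these libraries.

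Type I interferon binds the paired chains Ifnar1 and Ifnar2, whose bound kinases Tyk2 and Jak1 phosphorylate STAT proteins, Stat2 among them. Stat2 and Irf9 are parts of ISGF3, a complex that binds interferon-stimulated response elements (ISRE) in the promoters of antiviral genes, among them Irf7, which amplifies production of interferon. STAT dimers bind gamma-activated sites (GAS), through which interferon gamma induces Irf1, and Stat3 answers the interleukin 6 family. Socs1 and Socs3 are induced by the same pathways and restrain the receptor kinases.

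The promoters of these genes show which of them carry the letters that ISGF3 and STAT dimers are known to bind. Sequences were those of RefSeq on GRCm38.p6, from 250 bases before to 50 bases after each annotated start, and all 9 genes matched. The ISRE core was searched as GAAANNGAAA and the GAS as TTCNNNGAA, on both strands. The ISRE core stood in the promoters of Socs1 and Stat2, 2 of the 9 genes, against 3.99% of 27025 genes with a promoter in the table (3.44% of 32851 promoters). The GAS letters stood in those of Ifnar1, Ifnar2, Irf1 and Socs3, 4 of the 9, against 9.55% of the genes (8.30% of the promoters). Neither was in the windows of Stat3, Irf7 and Irf9. A match is a description of letters and not a site shown to be bound. The windows below come from 2 genes with an ISRE core and 2 with a GAS, written 5′ to 3′ on the strand of the gene, with the matches in capitals.
Socs1, chr16:10785574-10785649, minus strand: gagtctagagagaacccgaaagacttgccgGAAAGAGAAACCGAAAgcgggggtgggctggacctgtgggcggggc
Stat2, chr10:128270248-128270315, plus strand: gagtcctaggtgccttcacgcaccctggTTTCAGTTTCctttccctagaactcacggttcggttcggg
Irf1, chr11:53769894-53769962, plus strand: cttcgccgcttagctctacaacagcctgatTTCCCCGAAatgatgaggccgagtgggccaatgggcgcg
Socs3, chr11:117969482-117969550, minus strand: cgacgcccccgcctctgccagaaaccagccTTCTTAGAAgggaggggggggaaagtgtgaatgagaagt
In Socs1 the capitals hold 2 overlapping ISRE cores, the first of which began 83 bases before the annotated start. The Stat2 core lies on the opposite strand to the gene, 222 bases before its start. The GAS letters began 90 bases before the start of Irf1 and 154 bases before that of Socs3.

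The libraries held 17.6 to 27.7 M counts (M, mega). Levels are given as CPM, the counts per M counts of the scaled library size. Hgs, the targeted gene, stood at 95.0 to 113.3 CPM in the 4 shCTL cultures and 30.4 to 44.5 CPM in the 4 shHrs cultures. In tumours it stood at 95.75 to 111.6 CPM with shCTL and 16.1 to 29.1 CPM with shHrs, so that no shHrs library reached a control. Even so, edgeR did not call Hgs in batch 1 (log2 fold change -1.67, adjusted p = 0.103) or over both batches (-1.49, adjusted p = 0.0502). DESeq2 called it in both (adjusted p = 8.6e-07 and 7.0e-11). A gene without an edgeR call in these 2 comparisons is therefore not shown to be unchanged. The summed level of 10 melanocyte markers was at least 8368 CPM in every library. In batch 2 it was 8368 to 9060 CPM with shHrs and 16560 to 19030 CPM with shCTL, while that of 10 endothelial markers, of which Cldn5, Emcn and Kdr had 0 counts in every culture, was 427.5 to 544.7 CPM with shHrs and 267.7 to 346.6 CPM with shCTL. The part of these shifts in the differences found in batch 2 was not tested. In batch 1 the 2 shHrs cultures differed from each other more than the pair of any other culture group, with a chi-square per degree of freedom of 209 against 35.5 to 92.1. The summed level of 36 known ISGF3 targets was 593 CPM in batch 1 shHrs replicate 1, close to the 479 and 581 CPM of the controls, and 1500 CPM in replicate 2. Values of batch 1 are therefore also given without each of these 2 libraries. Those targets answer the same factors as the genes described here, so a call gained by leaving out replicate 1 is given as a description and supports nothing.

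Per kilobase of exon, Stat3 and the receptor chains had the highest group means of the 9 genes in the shCTL groups. In shCTL cultures of batch 2, mean levels were 15.2 CPM per kb for Ifnar2, 14.0 for Ifnar1 and 12.3 for Stat3, with no overlap between neighbours. Socs3 (4.25 CPM per kb) and Irf1 (3.82) followed and overlapped, then Stat2 (2.43), Irf9 (1.26), Socs1 (0.187) and Irf7 (0.0462), each below the one before it in both libraries. In shHrs cultures of the same batch Irf9 reached 8.67 CPM per kb and stood next below the receptor chains and Stat3, above Irf1 (5.66), Stat2 (4.11), Socs3 (3.33), Socs1 (1.26) and Irf7 (0.394), while Ifnar1 (15.4), Stat3 (13.4) and Ifnar2 (13.1) stayed on top. Levels in shCTL tumours were 25.5 CPM per kb for Stat3, 17.3 for Ifnar1, 15.6 for Ifnar2, 9.58 for Irf1 and 5.93 for Socs3. Stat2 (3.98), Irf9 (3.93) and Irf7 (3.80) lay together below them with overlapping ranges, and Socs1 (0.606) was lowest. With shHrs the tumours held 25.5 CPM per kb of Stat3, 19.0 of Ifnar1, 16.2 of Ifnar2, 14.4 of Irf1, 9.83 of Irf7, 7.34 of Stat2, 6.96 of Irf9, 5.61 of Socs3 and 1.48 of Socs1, and every neighbour in that order overlapped.

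**Figure D1:**
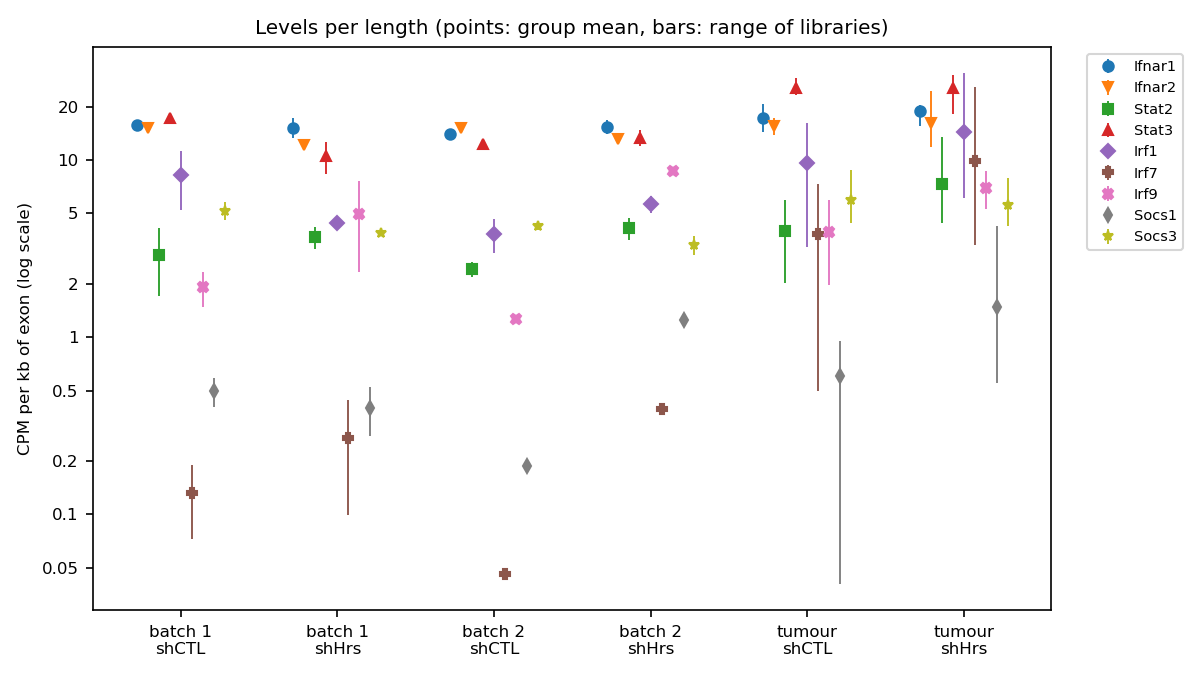
Mean level of each gene per kilobase of exon in the 6 groups, in CPM per kb on a log axis, with bars from the lowest to the highest library. Stat3, Ifnar1 and Ifnar2 lie on top in every group, and Irf7 lies lowest in each culture group.

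The receptor chains differed little between shHrs and shCTL. Ifnar1 stood at 92.1 and 94.4 CPM in the shCTL cultures of batch 1, against 102.1 and 78.6 CPM with shHrs, and at 80.7 and 85.1 CPM in those of batch 2, against 99.7 and 83.2 CPM. The groups overlapped in both batches, and the log2 fold change over both was 0.02 (SE 0.17). Ifnar2 stood at 52.8 and 47.9 CPM with shCTL and 41.9 and 39.1 CPM with shHrs in batch 1. In batch 2 the values were 47.9 and 53.2 CPM with shCTL and 43.3 and 44.1 CPM with shHrs. Each of the 4 shHrs cultures was thus below each of the 4 shCTL cultures, a pattern that Socs3 shared and that 3.01% of all genes tested showed in that direction and 2.96% in the other. The log2 fold change of Ifnar2 over both batches was -0.29 (SE 0.15), which edgeR's quasi-likelihood test did not call (adjusted p = 0.406).

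Stat2, a part of ISGF3, stood at 15.8 and 13.0 CPM in the shCTL cultures of batch 2 and at 27.8 and 20.9 CPM in the shHrs cultures. The groups did not overlap, with a log2 fold change of 0.71 (SE 0.41) that edgeR did not call (adjusted p = 0.291) and did call in a fit of batch 2 alone (0.74, adjusted p = 0.0321). In batch 1 Stat2 overlapped, at 24.6 and 10.1 CPM with shCTL and 18.6 and 24.7 CPM with shHrs. Stat3, which shares 0.8% of its exon bases with Stat5a, stood at 165 and 162 CPM with shCTL and 79.9 and 120.6 CPM with shHrs in batch 1. It was lower in both shHrs cultures there (log2 fold change -0.72, SE 0.25, edgeR adjusted p = 0.479), and overlapped in batch 2, at 115.4 and 119.2 CPM against 140.9 and 114.0 CPM.

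Irf9, the DNA-binding part of ISGF3, rose in batch 2. Its level was 6.61 and 6.97 CPM with shCTL (mean 6.79 ± 0.251, SD, n = 2), against 45.4 and 48.0 CPM with shHrs (46.7 ± 1.81, n = 2). Both shHrs cultures were far above both controls, a 6.65-fold difference (log2 fold change 2.73, SE 0.51) with an edgeR adjusted p of 0.0329. In batch 1 Irf9 stood at 12.6 and 8.00 CPM with shCTL and at 12.5 and 41.2 CPM with shHrs, so that shHrs replicate 1 lay within the controls and replicate 2 above them. The log2 fold change was 1.36 (SE 0.49) there and 2.05 (SE 0.43) over both batches, neither called by edgeR (adjusted p = 0.489 and 0.256). With no filter on low counts both were called (adjusted p = 0.0272 and 0.0162). Without batch 1 shHrs replicate 1 they were 1.96 (adjusted p = 0.00516) and 2.45 (adjusted p = 0.0142), and without replicate 2 they were 0.30 (adjusted p = 1.00) and 1.88 (adjusted p = 0.230). The difference between the batches' effects, 1.37 (SE 0.68, adjusted p = 0.302), was 0.81 without replicate 1 (adjusted p = 0.207) and 2.43 without replicate 2 (adjusted p = 0.0175). Irf9 has 2.3% of its exon bases in common with Rnf31 on the same strand. Ifnar2 shares 9.5% with Gm21970, also on the same strand. Irf1 shares 3.4% with Gm17334 and Irf7 1.2% with Phrf1, both on the opposite strand.

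Irf7, which takes part in amplifying interferon production, had the lowest mean of the 9 genes in each culture group. In batch 1 shHrs replicate 2 it lay above Socs1, at 1.67 against 1.52 CPM. Its counts were 4 in each of the shCTL cultures of batch 2 and 30 and 41 in the shHrs cultures, or 0.182 and 0.167 CPM against 1.44 and 1.54 CPM. The shHrs cultures were 8.02-fold higher (log2 fold change 3.00, SE 0.85) without overlap, yet edgeR did not call the difference (adjusted p = 0.0758). With no filter on low counts it was called (adjusted p = 0.00981), as it was by DESeq2 (adjusted p = 0.0316), in a fit of batch 2 alone (adjusted p = 0.000700), and in edgeR fits that left out batch 1 shHrs replicate 1 (adjusted p = 0.0159) or replicate 2 (adjusted p = 0.0186). In batch 1 Irf7 stood at 0.275 and 0.717 CPM with shCTL and 0.377 and 1.67 CPM with shHrs, with shHrs replicate 2 again the highest.

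Irf1, the factor that interferon gamma induces through GAS, lay on opposite sides of its controls in the 2 batches and was called in neither. In batch 1 it stood at 20.8 and 44.8 CPM with shCTL and 16.8 and 18.2 CPM with shHrs, with both shHrs cultures lower. In batch 2 it stood at 11.9 and 18.5 CPM with shCTL and 20.0 and 25.0 CPM with shHrs, with both shHrs cultures higher. The log2 fold changes were -0.92 (SE 0.39, edgeR adjusted p = 0.528) and 0.52 (SE 0.39, adjusted p = 0.413), and their difference of 1.44 (SE 0.55) was not called (adjusted p = 0.198). The value of batch 1 was -1.38 without shCTL replicate 1 and -0.25 without shCTL replicate 2, the control at 44.8 CPM.

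Socs1, the inhibitor with the 2 ISRE cores shown above, rose in batch 2. It held 11 and 14 counts (0.501 and 0.584 CPM) with shCTL and 73 and 102 counts (3.49 and 3.83 CPM) with shHrs. The shHrs cultures were 6.46-fold higher without overlap (log2 fold change 2.69, SE 0.52, edgeR adjusted p = 0.0343). In batch 1 it overlapped, at 1.18 and 1.71 CPM with shCTL and 0.807 and 1.52 CPM with shHrs (log2 fold change -0.32, SE 0.50). The difference between the effects in batch 2 and batch 1 was 3.01 (SE 0.71), which edgeR did not call (adjusted p = 0.0958). It was called with no filter on low counts (adjusted p = 0.0165) and by DESeq2 (adjusted p = 0.0203), and in edgeR fits that left out batch 1 shHrs replicate 1 (2.69, adjusted p = 0.0413) or replicate 2 (3.50, adjusted p = 0.0374).

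Socs3, the inhibitor that STAT3 is known to induce, lay lower in every shHrs culture. It stood at 13.2 and 16.8 CPM with shCTL and 11.2 CPM in both shHrs cultures of batch 1, and at 11.6 and 13.0 CPM with shCTL and 8.42 and 10.8 CPM with shHrs in batch 2. No shHrs culture reached a control of either batch, and the log2 fold change over both was -0.42 (SE 0.20, edgeR adjusted p = 0.396), not a call.

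**Figure D2:**
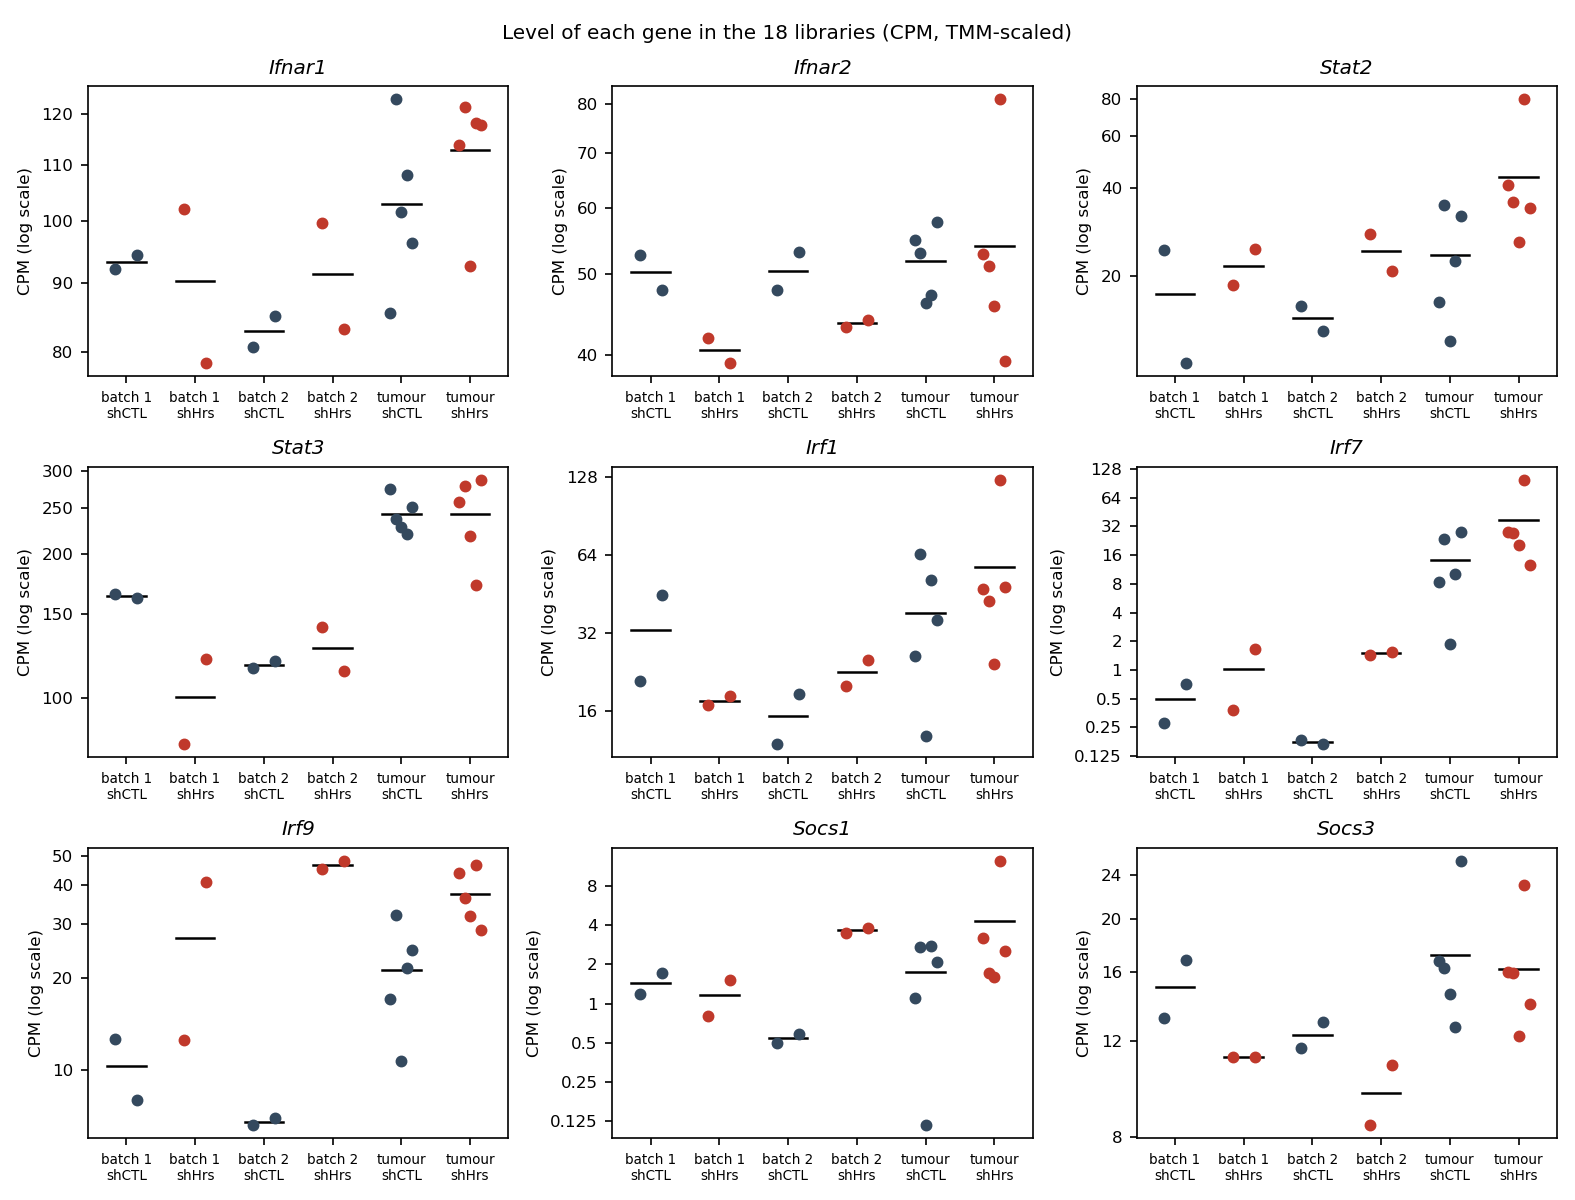
Level of each of the 9 genes in all 18 libraries, in CPM on log axes that differ between panels, with a bar at the mean of each group. Irf9, Irf7 and Socs1 show both shHrs cultures of batch 2 far above their controls, and all 9 genes overlap between shCTL and shHrs tumours.

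In batch 2, edgeR called 2 of the 9 genes, Irf9 and Socs1, both higher, where 4.03% of all genes tested were called, 1.60% higher and 2.43% lower. Groups were without overlap in 7 of the 9, with 5 higher (Stat2, Irf1, Irf7, Irf9 and Socs1) and 2 lower (Ifnar2 and Socs3), but with 2 against 2 libraries 35.0% of all genes tested lay higher in this way and 34.7% lower. In batch 1, 4 of the 9 were without overlap, all lower (Ifnar2, Stat3, Irf1 and Socs3), against 16.8% of all genes tested. None of the 9 was called in batch 1 or over both batches by edgeR with the filter on low counts, which called 0 of all genes tested. Without the filter edgeR called Irf9 in both comparisons, as given above. DESeq2 called Irf9 over both batches (adjusted p = 0.000339), against 2.39% of all genes, and none of the 9 in batch 1, against 1.71%. At an unadjusted p under 0.05 edgeR counted 3 of the 9 in batch 1, against 9.38% of all genes, and 2 over both batches, against 13.3%, and limma voom called none of the 9 in either. All 9 differences between the batches' effects were above 0, where 48.1% of all genes were. None was called by edgeR or limma voom, against 0.155% of all genes by edgeR. At an unadjusted p under 0.05 edgeR counted 2 of the 9, against 20.3% of all genes, and DESeq2 called 1, Socs1, against 7.60%.

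Leaving out either shHrs library of batch 1 moved most of the values there. Without replicate 1 the log2 fold changes in batch 1 were 1.73 for Irf7, 0.48 for Stat2, 0.04 for Socs1, -0.29 for Ifnar1, -0.40 for Ifnar2, -0.48 for Stat3, -0.90 for Irf1 and -0.46 for Socs3. Without replicate 2 they were -0.33 for Irf7, 0.12 for Stat2, -0.81 for Socs1, 0.15 for Ifnar1, -0.24 for Ifnar2, -1.01 for Stat3, -0.95 for Irf1 and -0.40 for Socs3. Of the 9 genes, edgeR called Irf9 without replicate 1 and none without replicate 2. Irf7 and Socs1 over both batches were 2.46 and 1.75 without replicate 1 and 1.77 and 1.51 without replicate 2.

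The calls of Irf9 and Socs1 in batch 2 needed all 4 libraries of that batch. Without shCTL replicate 1, shCTL replicate 2, shHrs replicate 1 or shHrs replicate 2 edgeR called 0 genes of any kind in batch 2, while the log2 fold changes stayed between 2.70 and 2.76 for Irf9 and between 2.60 and 2.79 for Socs1. The adjusted p values without one of these libraries rose to at most 0.300 for Irf9 and 0.307 for Socs1.

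**Figure D3:**
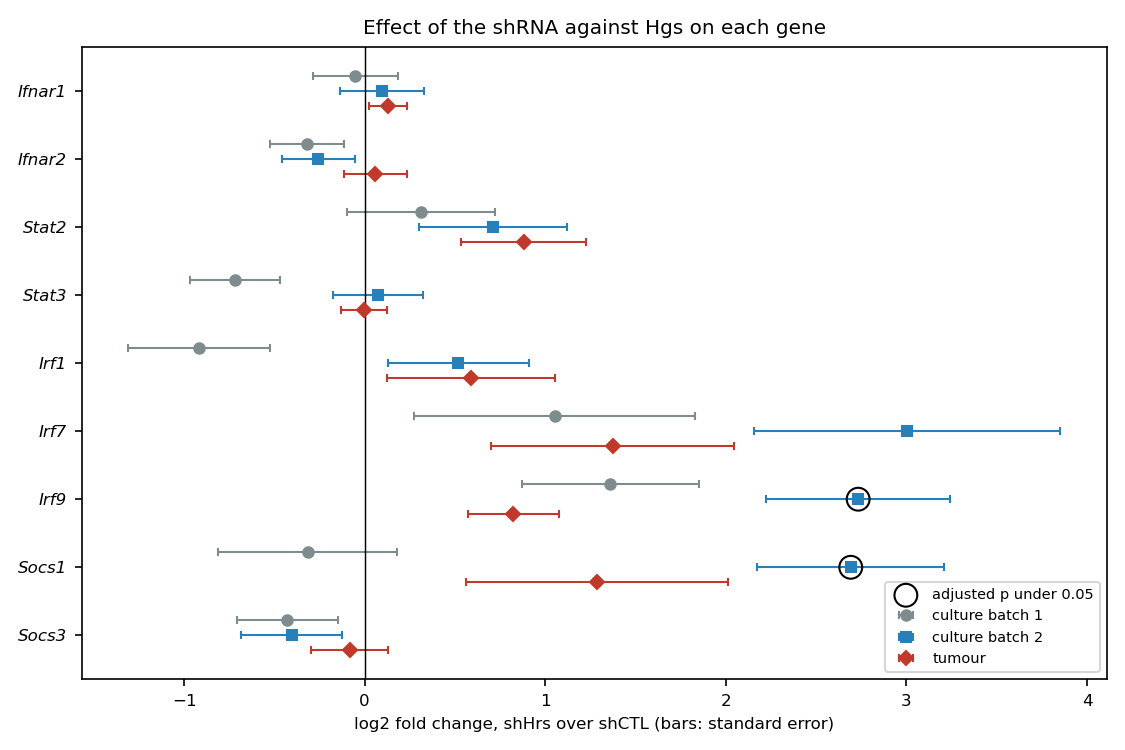
Log2 fold change, shHrs over shCTL, of each gene in culture batch 1, culture batch 2 and tumours, with bars of 1 standard error, and rings where edgeR's adjusted p was under 0.05. The ringed points are Irf9 (2.73) and Socs1 (2.69) in batch 2.

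In tumours none of the 9 genes was called by edgeR, where 0.545% of all genes tested were, and none had groups without overlap, against 1.99% of all genes higher and 2.28% lower. At an unadjusted p under 0.05 edgeR counted 2 of the 9, against 14.1% of all genes, limma voom called none and DESeq2 called 1, Irf9, against 4.15%. Fewer cells of a type and less RNA per cell cannot be told apart in these bulk samples. Irf9 came nearest to a call. The shCTL tumours 1 to 5 held 17.0, 31.9, 10.7, 21.5 and 24.7 CPM (mean 21.2 ± 8.00, SD, n = 5). The shHrs tumours 1 to 5 held 44.0, 36.4, 31.7, 46.7 and 28.7 CPM (37.5 ± 7.76, SD, n = 5). Only shCTL tumour 2 exceeded any shHrs tumour, and the log2 fold change was 0.82 (SE 0.25). The adjusted p was 0.162 by edgeR and 0.0310 by DESeq2, and the exact two-sided permutation test over 252 splits of the tumours gave 0.0238, not adjusted for the 9 genes tested, where the smallest possible p is 0.00794.

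Stat2 stood at 16.3, 35.0, 12.0, 22.6 and 32.1 CPM in shCTL tumours and at 41.0, 35.9, 26.2, 80.1 and 34.2 CPM in shHrs tumours. The 3 highest were shHrs tumours, and the log2 fold change of 0.88 (SE 0.35) was not called by edgeR (adjusted p = 0.276; exact permutation p = 0.0556). Irf7 stood at 8.31, 23.8, 1.87, 10.1 and 27.8 CPM with shCTL and at 28.2, 27.3, 20.2, 97.6 and 12.5 CPM with shHrs. The groups overlapped from 12.5 to 27.8 CPM, with a log2 fold change of 1.37 (SE 0.67, edgeR adjusted p = 0.395).

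Irf1 stood at 26.1, 64.5, 12.8, 51.3 and 35.8 CPM with shCTL and at 47.1, 42.5, 24.3, 123.9 and 47.8 CPM with shHrs. Only shHrs tumour 4 lay above the highest control, and the log2 fold change was 0.59 (SE 0.47, edgeR adjusted p = 0.636). Socs1 stood at 1.11, 2.72, 0.117, 2.76 and 2.10 CPM with shCTL and at 3.20, 1.72, 1.60, 12.4 and 2.53 CPM with shHrs. The lowest control rested on 2 counts, and the log2 fold change of 1.29 (SE 0.73) was not called by edgeR (adjusted p = 0.475).

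Ifnar1, Ifnar2, Stat3 and Socs3 showed small differences in tumours. Ifnar1 ranged from 85.5 to 123.0 CPM with shCTL and from 92.6 to 121.4 CPM with shHrs, and Ifnar2 from 46.2 to 57.8 and from 39.4 to 81.1 CPM. Stat3 ranged from 221 to 275 CPM with shCTL and from 173 to 286 CPM with shHrs, and Socs3 from 12.7 to 25.4 and from 12.2 to 23.0 CPM. Their log2 fold changes were 0.13 (SE 0.11), 0.06 (SE 0.17), -0.005 (SE 0.13) and -0.08 (SE 0.21), with edgeR adjusted p values from 0.653 to 0.992, and the sign for Stat3 turned with no filter on low counts (0.005).

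A single tumour weighed on several of these values. The shHrs tumour 4 was the highest of the 10 in Ifnar2, Stat2, Irf1, Irf7, Irf9 and Socs1, 6 of the 9 genes, and the lowest in Stat3. The shCTL tumour 3 was the lowest in Stat2, Irf1, Irf7, Irf9 and Socs1. Without shHrs tumour 4 the log2 fold changes were 0.60 for Irf7, 0.35 for Socs1, 0.08 for Irf1, 0.53 for Stat2 and 0.72 for Irf9, and that of Ifnar2 was -0.15. Without shCTL tumour 3 they were 1.09 for Irf7, 0.98 for Socs1, 0.36 for Irf1, 0.71 for Stat2 and 0.65 for Irf9.

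The same 2 tumours were the extremes in leukocyte RNA. The summed level of 30 leukocyte markers was 144, 546, 54.1, 369 and 741 CPM in shCTL tumours 1 to 5 and 450, 418, 289, 1301 and 269 CPM in shHrs tumours 1 to 5. The group means of the log2 sums, with a pseudocount of 2, differed by 0.796, or 1.74-fold, with overlap (exact permutation p = 0.365). All 30 markers had counts in tumours. In cultures the sum was 4.36 to 37.9 CPM, with 11 of the 30 markers, among them C1qa, Cd3d, Cd3g and Itgax, at 0 counts in every culture. In shCTL tumour 4, at 369 CPM of these markers, Irf9 stood at 21.5 CPM. In shHrs tumours 3 and 5, at 289 and 269 CPM, it stood at 31.7 and 28.7 CPM. In the same tumours, in that order, Stat2 stood at 22.6, 26.2 and 34.2 CPM and Irf7 at 10.1, 20.2 and 12.5 CPM. Irf1 and Socs1 went the other way, at 51.3, 24.3 and 47.8 CPM and at 2.76, 1.60 and 2.53 CPM. Irf9 in shCTL tumour 2, at 546 CPM of markers, was 31.9 CPM. On the same log2 scale, summed markers of endothelium differed 1.15-fold (exact p = 0.0238), those of erythroid cells 0.130-fold (exact p = 0.0318) and those of muscle 5.42-fold (exact p = 0.0556). The endothelial sum was 408.3 to 624.9 CPM in tumours and already 267.7 to 544.7 CPM in cultures, so it does not stand for endothelium alone. Sums for fibroblasts (0.849-fold, exact p = 0.802), keratinocytes (1.21-fold, 0.143) and melanocytes (1.12-fold, 0.151) were tested too, on that scale. The keratinocyte sums were near the floor, at 0 to 0.387 CPM in shCTL and 0.122 to 2.46 CPM in shHrs tumours, so the pseudocount of 2 shrank their fold. These exact permutation p values were not adjusted for the number of lists. The part of these cells in the levels of the 9 genes was not tested.

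**Figure D4:**
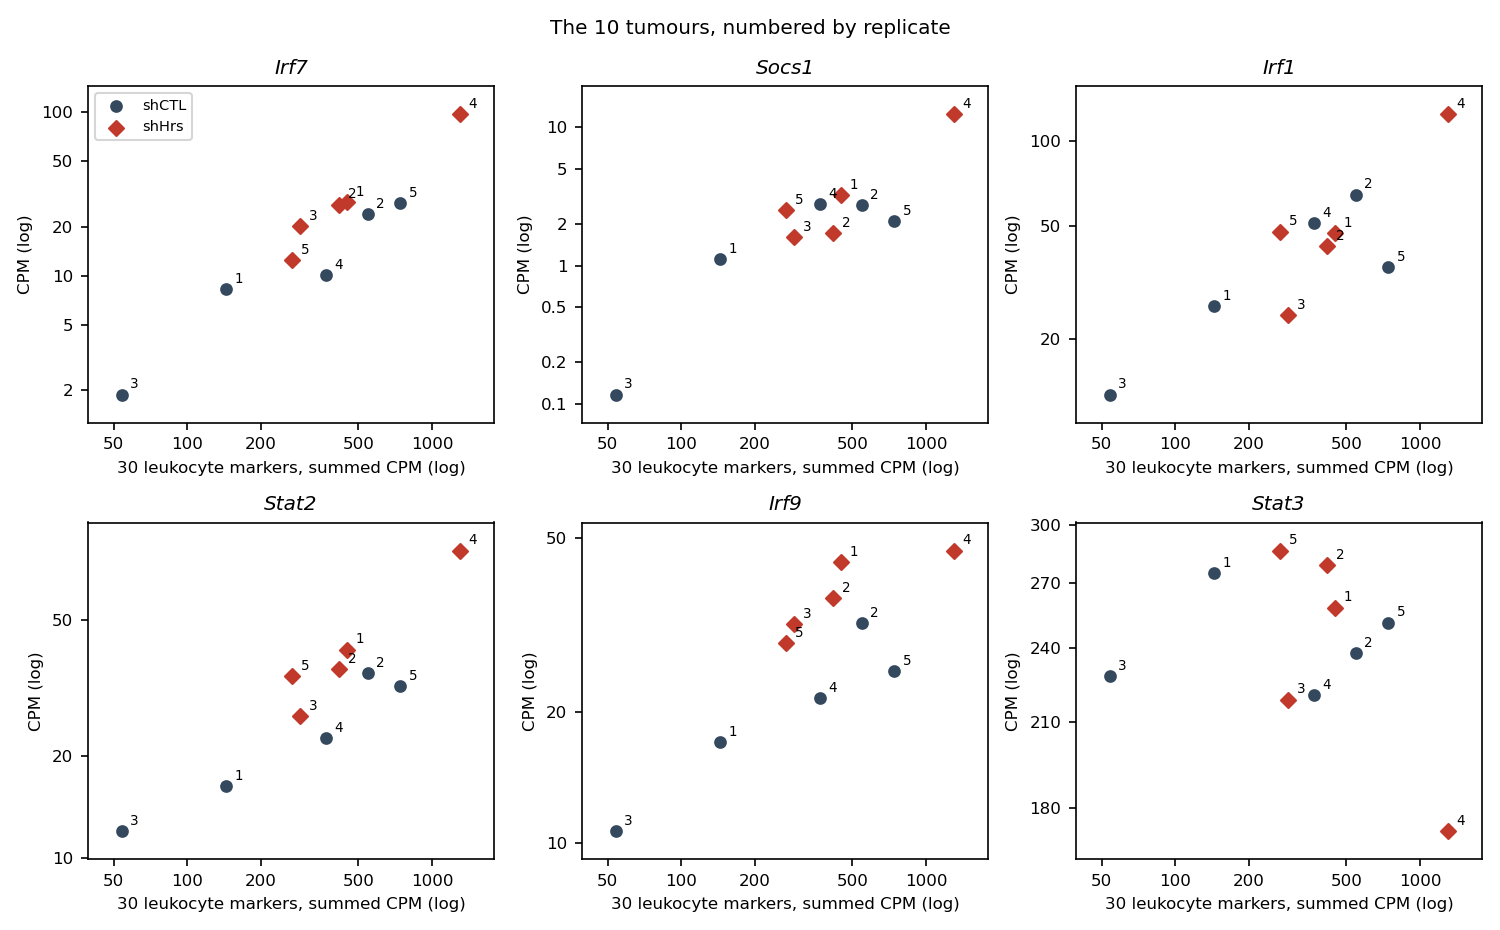
Level of 6 genes (CPM, log axis) against the summed level of 30 leukocyte markers (CPM, log axis) in the 10 tumours, numbered by replicate. The shHrs tumour 4 (1301 CPM of markers) and shCTL tumour 3 (54.1 CPM) lie at the ends of the marker axis and of the levels of Irf7, Socs1, Irf1, Stat2 and Irf9.

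The effect in tumours did not differ from the mean effect in cultures by a call for any of the 9 genes, where edgeR called 3.61% of all genes tested. Limma voom and DESeq2 also called none of the 9, and 1, Irf9, had an unadjusted p under 0.05 by edgeR, against 21.0% of all genes. The tumour effect minus the culture effect was -1.25 (SE 0.44) for Irf9 on the log2 scale, with an edgeR adjusted p of 0.114, and was called without batch 1 shHrs replicate 1 (-1.56, adjusted p = 0.0102) but not without replicate 2 (-0.72, adjusted p = 0.278). It was -0.71 (SE 1.14) for Irf7, 0.06 (SE 1.01) for Socs1, 0.75 (SE 0.63) for Irf1 and 0.34 (SE 0.50) for Stat2.

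Of 49 other genes of the pathway, 34 passed the filter on low counts in cultures and 36 in tumours, and edgeR called none in batch 1, batch 2, both batches or tumours. At an unadjusted p under 0.05 edgeR counted 1 of them in batch 1 and 1 over both batches, against 9.38% and 13.3% of all genes. DESeq2 called 0 and 1, against 1.71% and 2.39%, and limma voom 0. In batch 2, 18 of the 34 were above 0 on the log2 scale, against 47.3% of all genes. The median of the 34 was 0.07 beside -0.05 over all genes. At an unadjusted p under 0.05 edgeR counted 8 of them, where 27.9% of all genes passed, DESeq2 called 2, where it called 15.4% of all genes, and limma voom called 0. In tumours the median of the 36 was 0.01 beside 0.01 over all genes, with 8 at an unadjusted p under 0.05 and 3 called by DESeq2, beside the 14.1% and 4.15% of all genes given above, and 0 by limma voom.

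The interferon ligands that were looked up were close to absent. Of the interferon alpha genes these were Ifna1, Ifna2, Ifna4, Ifna5 and Ifnab only. None of the 12 ligand genes listed passed the filter, with 14 counts summed over the 8 cultures and 51 over the 10 tumours. Ifnb1, the gene of interferon beta, had 1 count in the cultures, in a shHrs library of batch 2, and 2 counts in shCTL and 10 in shHrs tumours.

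Among receptors and kinases, Ifngr1, a chain of the interferon gamma receptor, had a log2 fold change of 0.60 (SE 0.26) in batch 2, called by edgeR only in a fit of that batch alone (adjusted p = 0.0481), and 0.01 in tumours. Ifngr2, the other chain, had -0.01 in batch 2 and -0.29 (SE 0.06) in tumours, where no shHrs tumour reached a control. That difference was not called by edgeR (adjusted p = 0.0692) and was called by DESeq2 (adjusted p = 0.000802) and by edgeR without shHrs tumour 4 (-0.31, adjusted p = 0.0383). Jak1 had 0.07 and -0.02, Jak2 -0.20 and 0.05, and Tyk2 0.21 and 0.25 in batch 2 and tumours, and none of these was called.

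Among the factors and inhibitors that act beside the 9 genes, Irf3, the factor that nucleic acid sensors activate, had log2 fold changes of 0.24 in batch 2 and 0.06 in tumours. Usp18, an inhibitor that binds Ifnar2, stood at 1.73 and 1.92 CPM with shCTL and 35.7 and 48.3 CPM with shHrs in batch 2. The 2 shHrs cultures lay well above both controls, with a log2 fold change of 4.47 (SE 1.07, edgeR adjusted p = 0.0550). DESeq2 called it (adjusted p = 0.00295), as did edgeR when batch 1 shHrs replicate 1 (adjusted p = 0.00103) or 2 (adjusted p = 0.000931) was left out. In tumours it was 1.63 (SE 0.51, edgeR adjusted p = 0.172).

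Known targets of the factors were counted beside them. Of 36 ISGF3 targets, 35 were tested in batch 2. There 34 had a positive log2 fold change (median 2.69), against 47.3% of all genes, and 16 rose, against 1.60%. By fitted value the first among those called were Zbp1, a nucleic acid sensor with 0 counts in shCTL and 104 in shHrs cultures, at least 33.5-fold higher, and Oas3, a synthetase of the antiviral RNase L pathway with 0 and 33 counts, at least 10.6-fold higher. These bounds set 3 counts over the control group, and do not rank the 2 genes against targets with counts in the controls. The call of Oas3 ended with a replicate block (adjusted p = 0.0716) and in edgeR fits that left out batch 1 shCTL replicate 1 (adjusted p = 0.0620) or 2 (adjusted p = 0.0627). In batch 1 the median was 1.13 and none was called by edgeR or limma voom. There 14 had an unadjusted p under 0.05 by edgeR, against 9.38% of all genes, and DESeq2 called 5, against 1.71%. In tumours all 36 had a positive log2 fold change (median 1.05), against 51.5% of all genes, with none called by edgeR or limma voom. There 22 had an unadjusted p under 0.05 by edgeR, against 14.1% of all genes, and DESeq2 called 8, against 4.15%.

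Of 28 targets of GAS or Irf1, 19 were tested in batch 2 (median 1.40) and 4 rose, against 1.60% of all genes. The largest were Gbp3 (log2 fold change 4.60) and Igtp (4.11), both interferon-inducible GTPases. The call of Gbp3 ended in edgeR fits that left out batch 1 shCTL replicate 1 or 2, with its log2 fold change still 4.60. In batch 1 the median of the 19 was 0.32, with none called by edgeR, DESeq2 or limma voom. There 1 had an unadjusted p under 0.05 by edgeR, against 9.38% of all genes. In tumours all 28 were tested and all were positive (median 0.50), against 51.5% of all genes, with none called by edgeR or limma voom. At an unadjusted p under 0.05 edgeR counted 2, against 14.1% of all genes, and DESeq2 called 1, against 4.15%. Of 27 genes around interleukin 6 and Stat3, among them ligands and receptors of that family beside known targets, 24 were tested in batch 2 (median 0.54). Fos (2.75) rose, while Pim1, a kinase (-2.96), and Vegfa, an endothelial growth factor (-2.93), fell, beside 1.60% and 2.43% of all genes. The call of Vegfa also ended without batch 1 shCTL replicate 1 or 2, with its log2 fold change still -2.93. In batch 1 the median of the 24 was -0.29, with none called by edgeR and 1 by DESeq2, against 1.71% of all genes. There 7 had an unadjusted p under 0.05 by edgeR, against 9.38%. For the difference between the batches' effects 12 of the 24 had such a p, against 20.3%. EdgeR called none of these differences, and DESeq2 called 6, against 7.60%. In tumours 23 of the 27 were tested (median 0.02), with none called by edgeR, DESeq2 or limma voom. At an unadjusted p under 0.05 edgeR counted 3 of the 23, against 14.1% of all genes. Of 15 immediate early genes, which answer handling as well as growth factors, 12 were tested in batch 2 (median 0.75). Fos was the 1 called, where 4.03% of all genes were. In batch 1 the median of the 12 was 0.18, with none called by edgeR and 1 by DESeq2, against 1.71% of all genes. There 3 had an unadjusted p under 0.05 by edgeR, against 9.38%. The tumour effect minus the culture effect was below 0 for 33 of the 36 ISGF3 targets (median -1.05), where 51.2% of all genes were above 0. At an unadjusted p under 0.05 edgeR counted 10 of them, against 21.0% of all genes, and DESeq2 called 5, against 9.75%. Of the 28 targets of GAS or Irf1, 23 were below 0 (median -0.96), with 1 at that unadjusted p and none called by edgeR. The effects were smaller in tumours by an edgeR call for Oas1a (a difference of -2.28) and Trim25 (-2.12). These were the 2 ISGF3 targets called in that comparison, where edgeR called 3.61% of all genes. Oas1a was not called by limma voom (adjusted p = 0.0723) or with a replicate block (adjusted p = 0.0575). Its call also ended without batch 2 shHrs replicate 2 (adjusted p = 0.0745), batch 2 shCTL replicate 1 (0.0552) or 2 (0.0746), or shHrs tumour 1 (0.0507).

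The genes whose levels ran most alike with each of the 9 were found by Pearson correlation of log2 levels, over the 8 cultures after subtracting each batch mean and over the 10 tumours. All points share these libraries and their treatment, so the values are descriptions. In cultures Irf9 ran most with Tap1 (r = 0.994), Rtp4 (0.991) and Usp18 (0.990), all known to be induced by interferon. In tumours it ran most with Usp18 (0.987), Ddx60 (0.984) and Ifit1 (0.981). Irf7 ran most with Myd88 (0.989), Meis3 (0.988) and Mir24-2 (0.985) in cultures and with Oasl1 (0.988), Oasl2 (0.987) and Magee1 (0.984) in tumours. Stat2 ran most with Oplah (0.929), Cmpk2 (0.929) and Mx1 (0.925) in cultures and with Trim12a (0.983), Mx1 (0.971) and Psd4 (0.970) in tumours.

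Socs1 and Irf1 had other neighbours. Socs1 ran most with Lrrc49 and St6galnac4 (both 0.991) in cultures, and in tumours with Ikzf1 (0.982), a lymphoid transcription factor, Arhgap15 (0.970) and Tbc1d9 (0.961). Irf1 ran most with Itgb1 (0.991), Dok5 (0.982) and Il34 (0.981) in cultures and with Cd180 (0.984), a B cell and myeloid receptor, Gbp5 (0.978) and Atp8b4 (0.974) in tumours. Stat3 ran most with Dock8 (0.977), Slc4a4 (0.954) and Sidt2 (0.938) in cultures and with Itgav (0.963), Homer1 (0.944) and Auh (0.936) in tumours.

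Ifnar1 ran most with Trak2 (0.982), Cdh19 (0.966) and Asap1 (0.961) in cultures and with Gyk (0.945), Slc22a5 (0.942) and Irf4 (0.938) in tumours. For Ifnar2 these were Maged2 (0.987), Rab13 (0.979) and Cd59a (0.975), and Lemd2 and Cst3 (both 0.984) and Hopx (0.974). For Socs3 they included Lyz2 (0.945) and Pdlim2 (0.938), and Steap4 (0.945), Tmem159 and Cbr2 (both 0.934). Among the 9 genes themselves the closest pair in cultures was Irf7 and Irf9 (r = 0.929), and in tumours Irf7 and Stat2 (0.951). Socs3 ran opposite to Stat2 (-0.877) and Irf9 (-0.720) in cultures, and Stat3 opposite to Ifnar2 (-0.612) in tumours.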

How the data were processed

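RNA of 8 culture and 10 tumour libraries of B16F10 cells was sequenced as pairs with a NEBNext Ultra kit, per the labels' protocols. The values as deposited were whole-number counts for each gene symbol, not normalized, and all 18 columns entered. The submitters' processing notes name STAR 2.4.0h2, DESeq and mm10. How reads were counted, on which annotation and with which strand, is not given in the sources used here, and reads of overlapping genes cannot be told apart. Low counts were filtered with edgeR 4.0.16 (filterByExpr, minimum count 10) in R 4.3.3, with TMM scaling. The quasi-likelihood test of edgeR was two-sided, its p-values were adjusted by Benjamini-Hochberg across every gene tested, and an adjusted p under 0.05 was a call. Cultures were fitted with batch as a term and with a mean for each batch and treatment, tumours alone, and tumour against culture effects in all 18 libraries. Alternatives were DESeq2 1.42.0, limma voom 3.58.1, other scaling, no filter, each batch alone, a replicate block and leaving out each library. Log2 levels carry a pseudocount of 2, or 0.5 as an alternative. Tumour levels were also compared by exact permutation.

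The members and lists were chosen with earlier results of these data known. Genes named were the 9 members, Hgs, 9 fixed pathway genes, up to 4 called genes of the pathway and 2 of each target list in each direction, and the 3 genes most like each member; some genes that this took are not reported. On simulated counts, 2-fold changes were found in 11.3% of changed genes for both culture batches (12496 genes), 2.0% for batch 2 (12731 genes) and 67.3% for tumours (13088 genes), and 4-fold changes in 76.8%, 71.0% and 85.7%. No 2 libraries of a group agreed within sampling noise: chi-square per degree of freedom was 13.8 to 209.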

Additional observations from a re-analysis of the deposited data

Results flagged for a closer look

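In the 5 shHrs tumours the lowest level of Ifnar1, 92.63 CPM in replicate 3, stood apart from the other 4 by 0.762 of the group's range. In the same group the highest level of Socs1, 12.4 CPM in replicate 4, stood apart by 0.734 of the log2 range. The limit for 5 samples is 0.71, and of 18 groups of 5 examined chance alone marks about 1 in 20.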

How the results depend on the processing

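Counts of genes called over both culture batches, 0 by edgeR, were 74 with no filter on low counts, 301 by DESeq2 and 5 by limma voom. In batch 1 the count of 0 became 438 with no filter, 220 by DESeq2 and 1 with the replicate block. In batch 2 the count of 520 (206 higher) became 2224 with no filter, 1988 by DESeq2 and 4303 in a fit of that batch alone. For the difference between the batches' effects, 20 became 1311 with no filter, 980 by DESeq2 and 13 by limma voom. In tumours 72 became 549 by DESeq2 and 2 with the replicate block, and for the difference between tumours and cultures 522 became 1410 by DESeq2. Leaving out 1 library gave 0 to 164 calls over both batches, 0 to 1496 in batch 1, 0 to 2732 in batch 2, 0 to 1968 between batches, 32 to 158 in tumours and 125 to 2194 between tumours and cultures. The cause of these shifts was not tested. A culture group left with 1 library was assumed to vary like the other groups.

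Signs turned for the following log2 differences, none of which was called. Ifngr2 in batch 2 (-0.01) was 0.033 with DESeq2 size factors and by DESeq2, 0.027 with no filter and 0.023 in batch 2 alone. Stat3 in tumours was 0.005 with no filter, and Ifngr1 in tumours was -0.017 by limma voom and -0.012 with the replicate block. Leaving out 1 library turned signs within these ranges. Over both batches they were -0.052 to 0.116 for Ifnar1 and -0.478 to 0.202 for Irf1. In batch 1 they were -0.289 to 0.149 for Ifnar1, -0.181 to 1.079 for Stat2, -0.333 to 1.871 for Irf7 and -0.807 to 0.038 for Socs1. In batch 2 they were -0.057 to 0.268 for Ifnar1, -0.102 to 0.266 for Stat3, -0.085 to 0.071 for Ifngr2, -0.104 to 0.255 for Jak1 and -0.059 to 0.473 for Tyk2. Between batches they were -0.056 to 0.416 for Ifnar1, -0.014 to 0.179 for Ifnar2, -0.369 to 0.892 for Stat2 and -0.172 to 0.201 for Socs3. In tumours they were -0.145 to 0.154 for Ifnar2, -0.070 to 0.090 for Stat3, -0.253 to 0.104 for Socs3, -0.129 to 0.068 for Ifngr1, -0.057 to 0.056 for Jak1, -0.015 to 0.105 for Jak2 and -0.031 to 0.139 for Irf3. Between tumours and cultures they were -0.018 to 0.180 for Ifnar1, -0.050 to 0.582 for Stat2 and -0.866 to 0.314 for Socs1.

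Replicate numbers were not taken to pair the libraries. Same-numbered libraries correlated at 0.176 in batch 1, 0.023 in batch 2 and -0.598 to 0.467 in tumours. In tumours 1 of 5 numbers correlated best with itself, and in each culture batch both numbers did. With 2 libraries a group, each centred on the group mean, both numbers of a batch must give the same answer. The culture result therefore cannot show a pairing. With the replicate block edgeR called 464 genes in batch 2 (170 higher) and 0 over both batches.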
